A study of Canis lupus familiaris with 7 samples.

Results

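The expression of 8 genes that are repeatedly altered in osteosarcoma (OSA) was described in canine bone and OSA tumor tissue: *RB1*, *CDKN2B*, *CDK4*, *MDM2*, *MYC*, *SETD2*, *ATRX* and *DLG2*. They were chosen by name, as known tumor suppressors and drivers of this cancer, and make up 8 of the 24580 genes in the expression table; all 8 were found there, each under a single identifier. RNAseq of total RNA gave a value for each gene in 7 samples from dogs. The 4 non-tumor samples (N1, N3, N8 and N9) were bone without gross malignancy, and the 3 OSA tumor samples (T1, T3 and T10) were osteosarcomas diagnosed by histopathology. The pieces came from amputations or were taken just after euthanasia, and non-tumor bone was cut from beside a tumor, so it is tissue of affected dogs and not of healthy ones. Treatment, age and sex of these dogs are not given in the sources used here, and although the study calls the non-tumor tissue matched, they do not tie the numbers (N1 and T1, N3 and T3) to dogs. Levels are in FPKM, a count of sequenced fragments corrected for transcript length and for the number mapped in each library, and differences are log2 fold changes of FPKM + 1, tumor over non-tumor. Because FPKM corrects for length, levels of different genes are set side by side on the FPKM scale alone.

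As background, the retinoblastoma protein encoded by *RB1* holds E2F transcription factors inactive and so keeps cells from entering S phase. Cyclin D with CDK4 or CDK6 phosphorylates it and lifts this brake, while the inhibitor encoded by *CDKN2B* blocks these kinases. MDM2 marks p53 for degradation, and MYC drives transcription for growth and division. SETD2 places trimethylation on lysine 36 of histone H3, ATRX works with DAXX to load the histone variant H3.3 at telomeres and other repeats, and DLG2 is a scaffold protein of the discs large family, which organises cell polarity and junctions. Loss of *RB1* and gain of *CDK4*, *MDM2* and *MYC* are well-known events in osteosarcoma.

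The libraries did not separate cleanly by tissue. N1 and T1 were the most alike of all pairs, with 91.8% of the 13507 tested genes within 2-fold of each other, against 73.1% for the next pair (N3 and N8) and 51.9% to 61.5% for N1 with the other non-tumor samples. The summed FPKM of 9 osteoblast genes was 7471 in N1, 162 to 1723 in the other non-tumor samples and 1962 to 12761 in tumor. The 9 erythroid genes summed to 6.81 in N1, to 191 to 4515 in the other non-tumor samples and to 3.43 to 73.5 in tumor. The 11 skeletal muscle genes summed to 81.9 in N1, to 1361 in N3, to 52466 in N9 and 76582 in N8, and to 7.60 to 29.7 in tumor. *CKM*, the muscle creatine kinase gene, was listed at exactly 0 in N9 and at 35044 in N8, and without it the sums of N8 and N9 changed order (41538 and 52466). All 9 osteoblast genes were above 0 in every sample, and N3, N8 and N9 had higher erythroid and muscle sums than N1 or any tumor. N1 was kept in the group its label gives, so the non-tumor means include it. The osteoblast and erythroid sums of N1 lay within the range of the tumors, while its muscle sum, though far below those of the other non-tumor samples, was above that of every tumor. Whether N1 holds tumor tissue, was exchanged with another sample or comes from the same dog as T1 was not tested. The 8 genes, the pathway counts and the called genes of each pathway are therefore also given without N1. In such bulk tissue, fewer cells of a type and less RNA per cell cannot be told apart.

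On the FPKM scale, *CDK4* had the highest mean over the 7 samples (89.3), followed by *MDM2* (83.8), *MYC* (36.4), *RB1* (23.0), *ATRX* (12.0), *SETD2* (10.5), *DLG2* (1.68) and *CDKN2B* (0.285). The place of *CDK4* rests on T3: by the median over the samples *MDM2* came first (59.0), then *CDK4* (44.7), *MYC* (13.7), *SETD2* (10.1), *ATRX* (9.02), *RB1* (7.26), *DLG2* (0.438) and *CDKN2B* (0). Of these 8 genes, 7 passed the filter of a mean of at least 1 FPKM, and *CDKN2B* did not. With limma, 1 of the 7 tested genes was called, that is, changed at least 2-fold at an unadjusted p under 0.05, against 6.86% of all genes tested. That gene was *RB1*, which was lower in tumor, and 3.58% of all genes were called in that direction. In none of the 8 genes did every tumor sample lie on the same side of every non-tumor sample, a separation that 5.85% of tested genes had. No gene of the whole table reached an adjusted p under 0.05 by limma (0 genes, with 927 at an unadjusted p under 0.05), and the smallest adjusted p was 0.693, the value that every gene called over all 7 samples carries. The exact permutation tests below are two-sided, over 35 arrangements of the 7 samples, and their smallest possible p is 0.0571. All p-values measure the spread between these samples only.

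**Figure D1:**
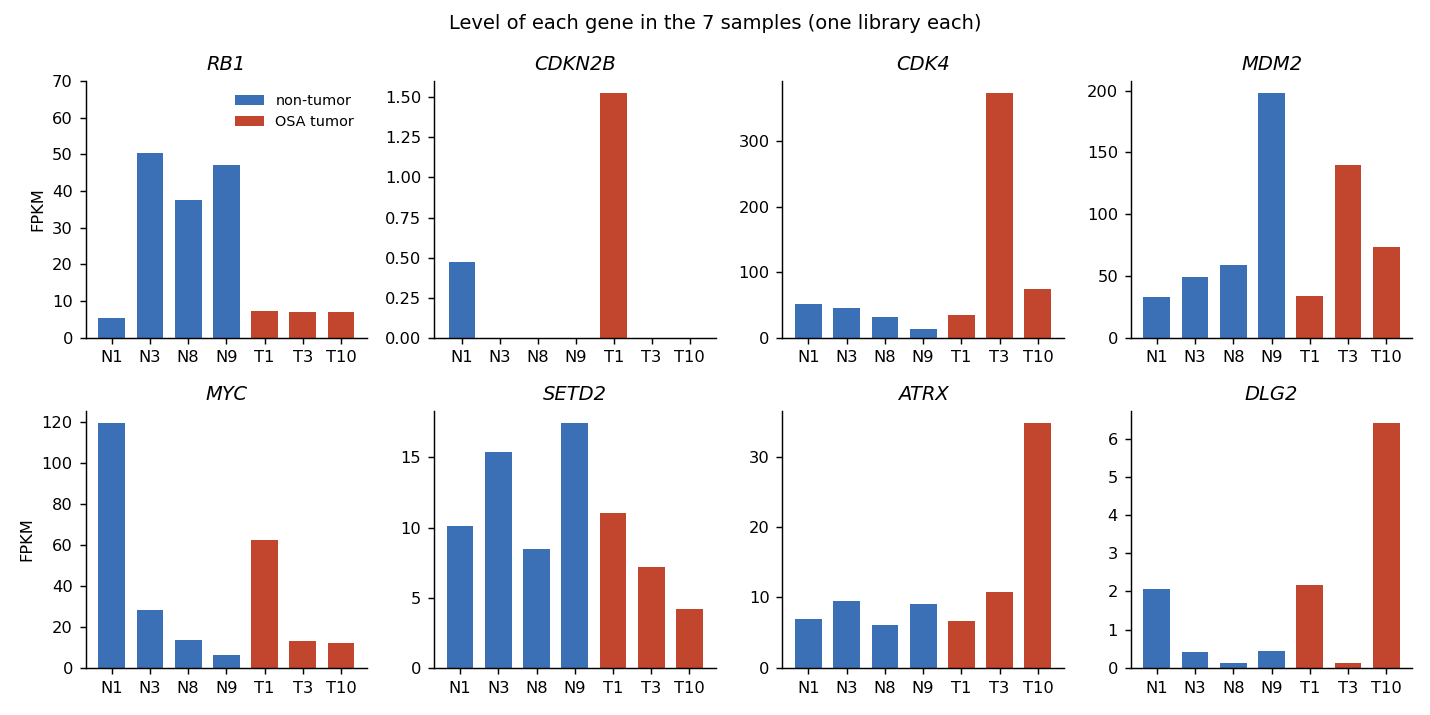
Level of each of the 8 genes in FPKM (vertical axis from 0, a different scale in each panel) in the 4 non-tumor samples (blue) and the 3 OSA tumor samples (red); each bar is a single library, so no error bar is drawn. *RB1* is at 37.6 to 50.3 in N3, N8 and N9 and at 5.40 to 7.26 in N1 and all 3 tumors, while *CDK4* stands out in T3 (373) and *ATRX* in T10 (34.7).

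*RB1* was lower in the tumors than in 3 of the 4 non-tumor samples. N1 was at 5.40 FPKM, N3 at 50.3, N8 at 37.6 and N9 at 47.0, and the tumors were at 7.26 in T1, 6.94 in T3 and 6.89 in T10. As deposited, the tumor mean was 7.03 ± 0.199 (SD, n = 3), whereas non-tumor bone averaged 35.1 ± 20.5 (SD, n = 4) and N1 lay below every tumor. With every sample rescaled to the same sum, the tumors were at 5.88, 6.97 and 10.7 in T1, T3 and T10, and N1, at 9.07, lay among them. Its log2 fold change was -1.80 (SE 0.73, 95% interval -3.44 to -0.15), with an unadjusted p of 0.0354 and an adjusted p of 0.693 by limma, and the exact permutation p was 0.143. Without N1 the groups did not overlap and the lowest non-tumor sample was 5.17 times the highest tumor, a separation with tumor lower that 9.31% of tested genes had among these 6 samples. The difference was then -2.51 on the log2 scale (SE 0.45, 95% interval -3.53 to -1.48), with an unadjusted p of 0.000421 and an adjusted p of 0.0806 by limma. In that comparison 14.8% of all genes were called, 8.48% as lower in tumor and 6.31% as higher. The exact permutation p was 0.1, the smallest that 3 against 3 allows. The call was lost when any other single sample was left out (log2 fold change -1.82 to -1.50, unadjusted p 0.0781 to 0.0960 by limma), as it was when the FPKM of every sample was rescaled to the same sum (unadjusted p = 0.0556 by limma). Among 12 further alternatives it was lost in 2, that rescaling among them. Median ratio scaling, which rests on the median gene and not on the sum, kept it (-1.77, unadjusted p = 0.0369 by limma). A single feature made up 47.3% of the FPKM sum of T1 and at most 15.2% of the others.

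The 3 samples with high *RB1* also had the highest erythroid, muscle and adipocyte sums. Their granulocyte and endothelial sums were the highest too, but by little at the lower end. Granulocyte genes summed to 1478 in N9 and 1466 in T10, and endothelial genes to 109 in N8 and 108 in T1. As deposited *RB1* differed by at most 1.34 times among N3, N8 and N9, but with every sample rescaled to the same sum by 3.41 times (66.1, 19.4 and 32.5). The erythroid sum ranged from 191 in N9 to 4515 in N8 and the muscle sum was lowest in N3. The 5 adipocyte genes summed to 162, 146 and 281 FPKM in N3, N8 and N9, and to 29.3 in N1 and 9.89 to 44.6 in tumor. The part of these cell types in the *RB1* difference was not tested. The annotated interval of *RB1* (CanFam3.1, chromosome 22, 3063451 to 3206499) also holds *LPAR6*, a receptor gene, at 10.6, 34.4, 9.06 and 12.6 FPKM in N1, N3, N8 and N9 and at 10.9, 30.3 and 9.32 in T1, T3 and T10. *LPAR6* was thus highest in N3 and T3, whereas *RB1* was high in N3, N8 and N9 and low in T3. Among the 17 tested genes within 1 Mb, the median log2 ratio of a sample to the median of the other 6 samples was -0.22 in T1, 0.04 in T3 and -0.22 in T10, and the same ratio was -0.11 in N1 and higher in the other non-tumor samples (0.34, 0.09 and 0.21 for N3, N8 and N9). With every sample rescaled to the same sum this order turned, the ratio being -0.62 in N9, -0.16 in T3 and 0.28 in T10, where all tested genes gave -0.50, -0.11 and 0.53.

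The genes whose profile over the 7 samples was most like that of *RB1* were *DACH1* and *MOGAT1*, with a root mean square difference of 0.17 and 0.25 on the log2 scale, where the spread of *RB1* around its own mean was 1.29. *DACH1*, which encodes a transcriptional corepressor and also lies on chromosome 22 (25689557 to 25934246), was at 9.42, 6.21 and 6.76 FPKM in N3, N8 and N9 and at 0.121 to 0.453 in N1 and the tumors. *MOGAT1*, an acyltransferase gene of lipid synthesis, was at 6.83, 4.70 and 9.37 in N3, N8 and N9 and at 0 to 0.403 in the other 4 samples.

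*CDKN2B* was hardly detected. It was listed at 0.472 FPKM in N1 and 1.53 in T1 and at 0 in N3, N8, N9, T3 and T10 (chromosome 11, 41261218 to 41264379). The only samples with a value above 0 were the N1 and T1 pair. In the fit without the filter on low values the log2 fold change was 0.31 (SE 0.34, 95% interval -0.49 to 1.10), and the exact permutation p was 0.714. Without N1 the non-tumor samples were all listed at 0, as were T3 and T10, and the exact permutation p was 1.0. The adjacent *CDKN2A*, 15.1 kb away, which encodes another cell cycle inhibitor and was looked at after its values were seen, was listed at 0 in N9, at 0.327 to 1.63 in the other 5 samples below T10, and at 54.3 in T10, 33.3 times the next highest sample. *CDKN2B* remained at 0 in T10.

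*CDK4* stood out in T3. N1 was at 51.3 FPKM, N3 at 44.7, N8 at 32.3 and N9 at 13.7, and the tumors were at 35.1 in T1, 373 in T3 and 74.9 in T10. T3 was 4.97 times the next highest sample and 9.34 times the median of the other 6, and 1.21% of tested genes had T3 as their highest sample at least as far above the next. T1 lay inside the non-tumor range. The mean was 161 ± 185 in tumor (SD, n = 3) and 35.5 ± 16.5 in non-tumor (SD, n = 4). This was a log2 fold change of 1.62 (SE 0.81, 95% interval -0.21 to 3.44, adjusted p = 0.693 by limma, exact permutation p = 0.114), which did not pass the threshold. It was 1.84 without N1 and 0.67 without T3. It passed the threshold without T1 (2.36, unadjusted p = 0.0207 by limma), where 8.99% of all genes were called, and also without both N1 and T1 (2.58, unadjusted p = 0.0232 by limma), where 14.0% of all genes were called.

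Many genes around *CDK4* were also highest in T3. The table gives *CDK4* an interval of 307.6 kb on chromosome 10 (1687463 to 1995052) that 15 genes share, so its own place within this interval is not resolved. Of the other genes there, 13 were tested and 10 (76.9%) were highest in T3, where T3 was the highest sample in 17.5% of all tested genes. They included *OS9*, a gene of endoplasmic reticulum quality control (308.5 FPKM in T3, 24.2 to 89.9 in the other samples), and *METTL1*, an RNA methyltransferase gene (101 in T3, 8.56 to 14.5 in the others). The median log2 ratio of T3 to the other 6 samples over these 13 genes was 2.52.

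Within 1 Mb on either side, 26 of 48 tested genes (54.2%) were highest in T3, 19 of them at least 2-fold above the next sample. *GLI1*, a transcription factor of Hedgehog signalling, was at 169 FPKM in T3 against 0.570 to 23.9 elsewhere. *PTGES3*, which encodes a co-chaperone, was at 1146 against 45.9 to 153. *LRIG3*, a membrane protein gene 726.3 kb beyond the interval, was at 192 against 0.808 to 16.2. Other genes in the same window did not share this: *TMEM194A*, *LRP1* and *STAT6* were highest in N3, T1 and N8. These neighbours were looked at after the level of *CDK4* was seen, and with every sample rescaled to the same sum T3 was still highest in 24 of 48 (50.0%), against 10.9% of all tested genes.

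**Figure D2:**
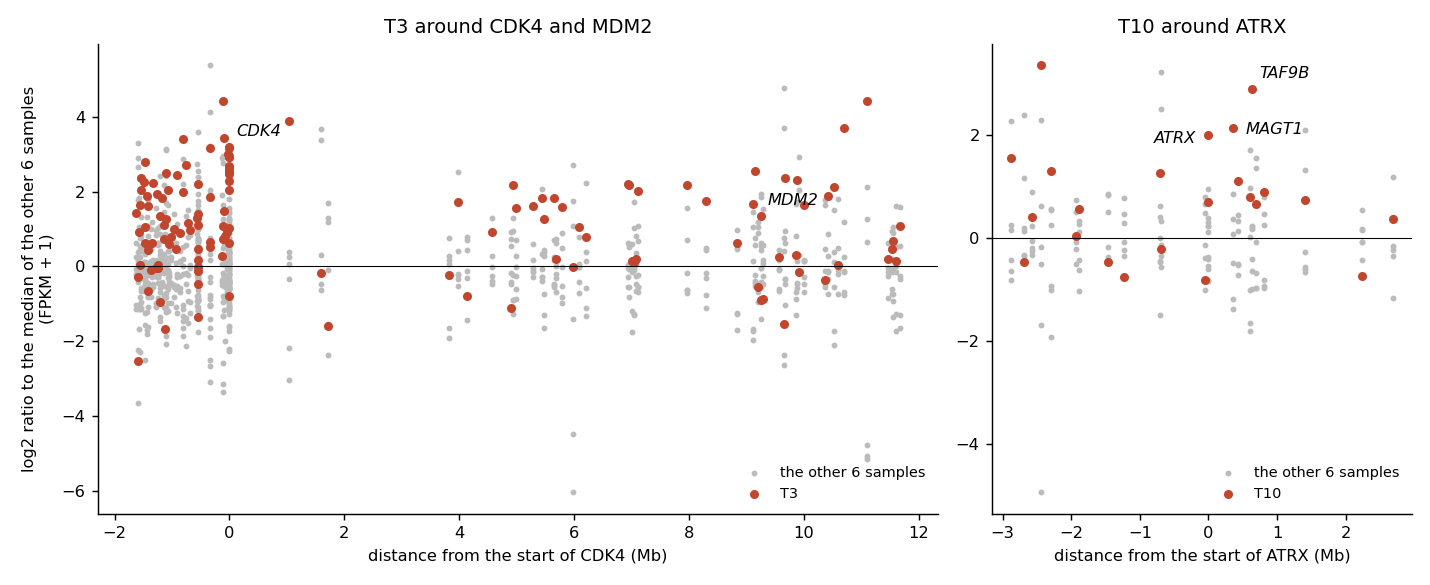
Levels of tested genes near *CDK4* and *MDM2* (left) and near *ATRX* (right), plotted as the log2 ratio of FPKM + 1 in a sample to the median of the other 6 samples (vertical axis) against the distance in Mb from the start of *CDK4* or *ATRX* (horizontal axis). Red points are T3 on the left and T10 on the right, and grey points are the other 6 samples, 1 point for each gene and sample. In T3, 10 of the 13 genes that share the interval of *CDK4*, stacked at 0, were above all other samples, and in T10 *TAF9B*, *MAGT1* and *ATRX* were.

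*MDM2* lies on the same chromosome, 8.94 Mb further on (10936609 to 10971551). In non-tumor bone it was at 33.3 FPKM (N1), 49.4 (N3), 59.0 (N8) and 198 (N9), and in tumor at 34.0 in T1, 140 in T3 and 73.2 in T10. The highest sample was thus non-tumor bone, T3 came next, and the tumor range lay inside the non-tumor range. With every sample rescaled to the same sum this order turned, T3 being the highest sample and T1 the lowest. With median ratio scaling N9 stayed the highest and N1 the lowest. The means were 84.9 ± 76.1 in non-tumor (SD, n = 4) and 82.4 ± 53.6 in tumor (SD, n = 3), and the log2 fold change was 0.09 (SE 0.72, 95% interval -1.53 to 1.70, adjusted p = 0.985 by limma, exact permutation p = 0.914). Without N1 it was -0.24. The interval spans a fold change of 2 in either direction, so a difference of that size was not detectable with these samples.

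Some genes around *MDM2* were also highest in T3. Within 1 Mb T3 was highest in 6 of 14 tested genes (42.9%, against 17.5% of all tested genes), among them the nucleoporin gene *NUP107* (48.5 FPKM in T3, 6.51 to 13.3 elsewhere) and *YEATS4*, a chromatin reader gene (36.3 against 3.55 to 13.1). Between the windows of *CDK4* and *MDM2* it was highest in 11 of 25 (44.0%), and beyond the window of *MDM2* in 107 of 371 genes of the chromosome (28.8%). With every sample rescaled to the same sum these counts were 4 of 14, 10 of 25 and 65 of 371 (17.5%), against 10.9% of all tested genes, and T10 was then highest more often than T3, in 5, 11 and 121 of them, against 26.7% of all tested genes. The profile nearest to that of *MDM2* was that of *PSMD12*, a proteasome subunit gene (root mean square difference 0.23), which was at 101 in N9, 90.5 in T3 and 25.3 to 60.6 in the others. Next came *SKP1*, a ubiquitin ligase subunit gene (0.25), at 196 in N9 and 109 in T3.

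*MYC* was highest in N1 and T1. The non-tumor levels were 119 FPKM (N1), 28.1 (N3), 13.7 (N8) and 6.25 (N9), and the tumor levels 62.5 in T1, 13.2 in T3 and 12.0 in T10 (chromosome 13, 25200392 to 25205878). Among the non-tumor samples alone the range was 19.1-fold, from N1 down to N9. Between the tissues the log2 fold change was -0.12 (SE 0.96, 95% interval -2.28 to 2.03, adjusted p = 0.985 by limma, exact permutation p = 0.857), and without N1 it was 0.64. *VDR*, the vitamin D receptor, and *FAM20A*, a gene of enamel formation, had the nearest profiles (0.30 and 0.35). *VDR* was at 23.3 in N1 and 14.3 in T1 and at 0.984 to 6.59 in the others, and *FAM20A* at 26.5 and 19.6 against 0.981 to 4.11. The osteoblast marker sum was also highest in T1 and N1 (12761 and 7471), and its part in the *MYC* levels was not tested. No other gene within 1 Mb of *MYC* was among those tested.

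*SETD2* was lower in 2 of the 3 tumors than in any non-tumor sample, but not past the threshold, and with every sample rescaled to the same sum N8 was the lowest sample. With median ratio scaling T10 stayed the lowest. N1 gave 10.1 FPKM, N3 gave 15.4, N8 gave 8.50 and N9 gave 17.4, and the tumors gave 11.1 in T1, 7.17 in T3 and 4.21 in T10 (chromosome 20, 41674853 to 41800209, an interval of 2 genes). T1 lay inside the non-tumor range. Tumor minus non-tumor was -0.74 on the log2 scale (SE 0.49, 95% interval -1.84 to 0.37, adjusted p = 0.733 by limma, exact permutation p = 0.143), and -0.83 without N1. Over the 33 tested genes within 1 Mb, the median log2 ratio to the other 6 samples was -0.78 in T3 and -0.88 in T10, against 0.11 in T1 and -0.06 to 0.37 in non-tumor bone. For all tested genes the same medians were -0.05 in T3 and -0.02 in T10. With every sample rescaled to the same sum they were -0.66 and -0.32 near *SETD2*, where all tested genes gave -0.11 and 0.53. The nearest profiles were those of *KCTD6* and *BCL7B* (root mean square differences 0.14 and 0.15), both at their lowest in T10 (1.10 and 9.99 FPKM) and highest in N9 (7.29 and 30.4).

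*ATRX* stood out in a single tumor. Non-tumor samples were at 6.96 FPKM (N1), 9.50 (N3), 6.07 (N8) and 9.02 (N9), and tumors at 6.67 in T1, 10.8 in T3 and 34.7 in T10 (chromosome X, 59772067 to 60107186, an interval of 2 genes). T10 was 3.21 times the next highest sample, and 1.17% of tested genes had their highest sample T10 at least as far above the next. Without T10 the remaining levels spanned 6.07 to 10.8. A log2 fold change of 0.75 was obtained (SE 0.58, 95% interval -0.55 to 2.06, adjusted p = 0.762 by limma, exact permutation p = 0.171), with 0.71 without N1 and 0.12 without T10.

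T10 was also the highest sample for 5 of the 10 tested genes within 1 Mb of *ATRX* (50.0%) and for 6 of 16 within 2 Mb (37.5%), against 15.8% of all tested genes. With every sample rescaled to the same sum, that background was 26.7% and T10 was highest in 6 of 10. *MAGT1*, a magnesium transporter gene 21.4 kb away, was at 91.1 FPKM in T10 and 8.84 to 37.2 elsewhere, and *TAF9B*, a transcription factor subunit gene, at 41.1 against 2.27 to 5.60. The nearest profiles were those of *WDR78* (0.14) and *CUL4B* (0.15). *CUL4B*, a ubiquitin ligase scaffold gene that is also on chromosome X, was at 32.2 FPKM in T10 and at 7.38 to 13.2 in the others.

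*DLG2* was low in all tissues. N1 was at 2.06 FPKM, N3 at 0.417, N8 at 0.120 and N9 at 0.438, while T1 was at 2.18, T3 at 0.140 and T10 at 6.39 (chromosome 21, 15005602 to 15776729). T10 was highest, the N1 and T1 pair came next, and T3 was among the lowest. For the tissues the log2 fold change was 0.88 (SE 0.71, 95% interval -0.72 to 2.49, adjusted p = 0.778 by limma, exact permutation p = 0.286), and 1.19 without N1. Of the fits that left out a single sample, it passed the threshold only without T3 (1.58, unadjusted p = 0.0343 by limma) and was 0.23 without T10. *GJB7*, a connexin gene, and *SUPT3H*, a gene of a transcription coactivator complex, had the nearest profiles (0.18 and 0.20), with 8.61 and 70.5 FPKM in T10.

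**Figure D3:**
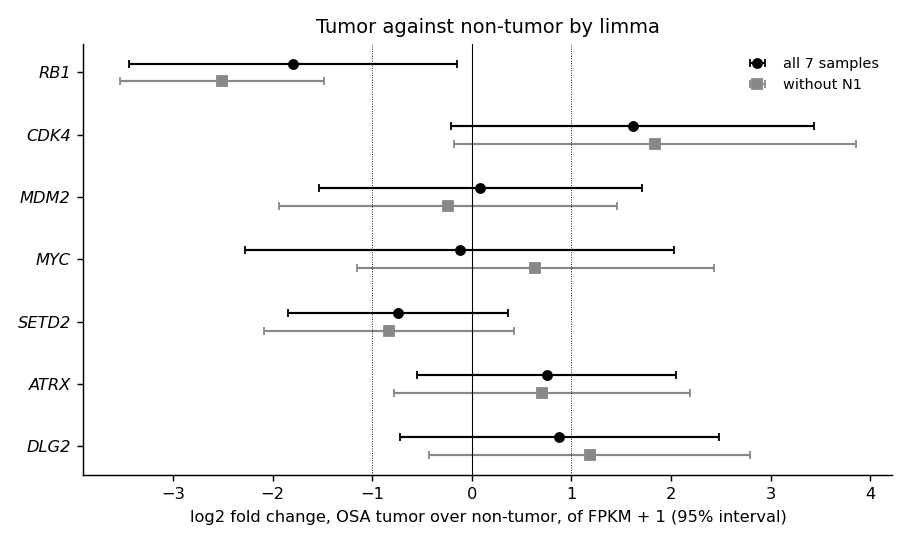
Log2 fold change of FPKM + 1, OSA tumor over non-tumor, for the 7 tested genes (horizontal axis) with 95% intervals from limma, for all 7 samples (black circles) and without N1 (grey squares); dotted lines mark a fold change of 2. The interval of *RB1* lies below 0 in both fits, and the intervals of the other 6 genes include 0 in both.

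The partners of these 8 genes were counted by pathway, each list leaving out the 8 genes themselves. In the RB pathway, 21 of 24 further genes were tested, of which 0 were higher and 1 lower in tumor (4.76%, where 6.86% of all tested genes were called and 3.58% as lower; median log2 fold change -0.22, where all tested genes had a median of -0.02). The gene that fell was *TFDP2*, an E2F dimerisation partner, at 5.39, 34.3, 30.7 and 19.4 FPKM in N1, N3, N8 and N9 and 2.76, 5.53 and 4.30 in T1, T3 and T10 (log2 fold change -1.95, SE 0.64, unadjusted p = 0.0139, adjusted p = 0.693 by limma). Without T1 that call was lost, and without N1 the log2 fold change was -2.48. *TFDP2*, too, was highest in N3, N8 and N9, the samples with the highest erythroid, muscle and adipocyte sums, whose part in this was not tested. Without N1, 5 of 21 were called (23.8%, where 14.8% of all genes were), with *CCND1* and *CDKN1A* higher and *RBL2*, *E2F2* and *TFDP2* lower. *CCND1*, the cyclin D that binds CDK4, was at 26.5 in N1, 1.45 to 6.13 in the other non-tumor samples and 12.8 to 37.9 in tumor, with a log2 fold change of 1.72 over all samples (adjusted p = 0.693 by limma) and 2.38 without N1 (adjusted p = 0.151). *CDK6*, the other kinase of that cyclin, was at 0 to 1.82 in non-tumor and 2.16 to 4.47 in tumor, so its groups did not overlap, with a log2 fold change of 1.10 that missed the threshold (adjusted p = 0.693 by limma). *E2F2* was at 13.4 in N3, 22.9 in N8 and 0.420 to 1.53 in the other 5 samples (log2 fold change -1.87, adjusted p = 0.693 by limma). These 2 samples had the highest erythroid and granulocyte sums (granulocyte 43713 in N3, 54404 in N8 and at most 1478 elsewhere), whose part in this was not tested. *E2F1* (0.28) and *CDKN1A* (1.30) did not pass the threshold. *CCND2*, another cyclin D gene picked out after its values were seen, was at 51.6 in T3 and 0.685 to 6.88 in the others, so T3 combined the highest *CDK4* with the highest *CCND2*.

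**Figure D4:**
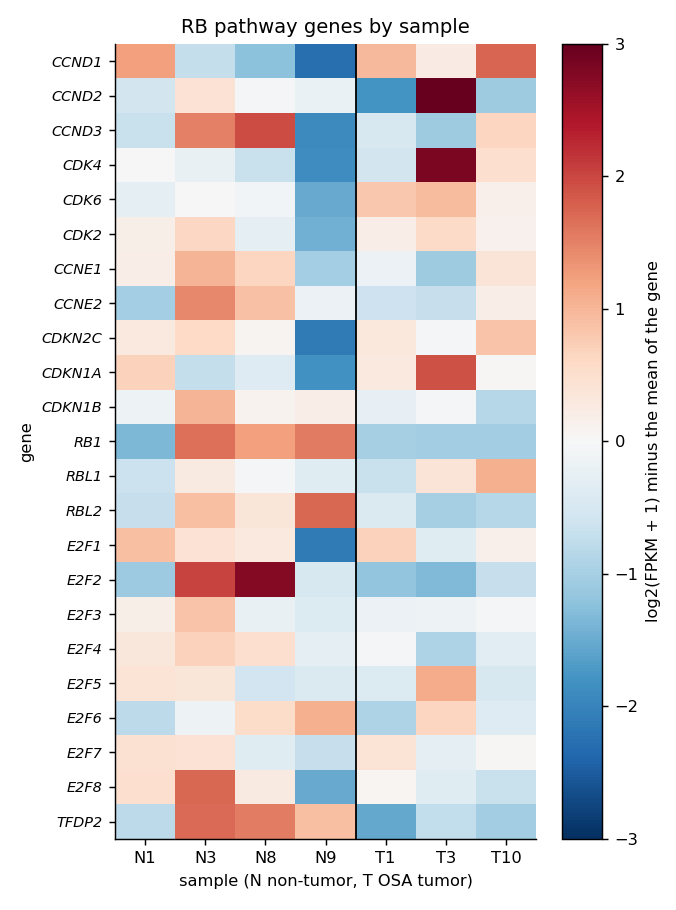
RB pathway genes that were tested (rows, with *CDK4* and *RB1* among them) in the 7 samples (columns, non-tumor left and OSA tumor right of the line), coloured by log2(FPKM + 1) minus the mean of the gene over the samples; the scale ends at -3 and 3. *RB1* and *TFDP2* are above their means in N3, N8 and N9 and below them in N1 and the tumors, and T3 stands out for *CDK4* and *CCND2*.

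Of the regulators and targets of p53, 17 were tested and 2 were lower in tumor (11.8%, against 3.58% of all tested genes; median -0.34). *SESN1*, a stress-induced sestrin, was at 17.3, 44.4, 83.6 and 116 FPKM in N1, N3, N8 and N9 and at 9.49, 7.75 and 12.0 in T1, T3 and T10, so that its groups did not overlap even with N1 (log2 fold change -2.34, SE 0.65, unadjusted p = 0.00550, adjusted p = 0.693 by limma). Its call held in all 7 fits that each left out a sample (-2.85 without N1) and was lost in 1 of 12 other alternatives. *GADD45A*, a growth arrest gene, was at 14.6 in N1 and 105 to 229 in the other non-tumor samples and 12.4 to 25.6 in tumor (log2 fold change -2.41, unadjusted p = 0.0219 by limma), and its call held in 2 of those 7 fits, being lost without N3, N8, N9, T1 or T10 (-3.25 without N1). Both genes were highest in N3, N8 and N9, the samples with the highest muscle, erythroid and adipocyte sums, and the part of those cells was not tested. Without N1, 6 of 17 were called (35.3%, against 14.8% of all tested genes), 1 higher and 5 lower. *MDM4*, the close relative of *MDM2*, was at 3.48 to 5.92 in non-tumor and 2.86 to 4.67 in tumor (log2 fold change -0.19, adjusted p = 0.933 by limma).

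The MYC network had 0 of 10 tested genes called and the MYC targets 0 of 16, against 6.86% of all tested genes, with median log2 fold changes of -0.07 and 0.25. Without N1 these counts were 0 and 1 (6.25%, where 14.8% of all tested genes were called), and without T1 they were 2 and 3, against 8.99% of all tested genes. *MLXIP*, a glucose-sensing relative, came nearest among the first (-1.55, adjusted p = 0.693 by limma), and *NOP58*, a ribosome assembly gene, among the second (1.05, adjusted p = 0.693). *NOP58* was at 10.6 to 25.5 FPKM in non-tumor and 27.0 to 43.9 in tumor, without overlap, and was the target called without N1 (1.23, adjusted p = 0.313 by limma). *NPM1* is listed under more than 1 identifier, so its value (1.28) is uncertain. *MAX*, the dimerisation partner of MYC (0.09), *MXD4* (-0.91) and *MYCN* (0.54, at 6.41 FPKM in T3 and 0 to 2.02 elsewhere) did not pass the threshold.

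Among genes of H3K36 methylation, 1 of 17 was lower in tumor, with N1 or without it (5.88%, where 6.86% of all tested genes were called with N1 and 14.8% without; median -0.07). It was *SETD3* (15.9 to 77.3 FPKM in non-tumor, 7.56 to 14.5 in tumor, log2 fold change -1.37, unadjusted p = 0.0484 by limma), which is now known to methylate actin, and its call was lost without N8, N9, T1, T3 or T10 and in 5 of 12 other alternatives (-1.64 without N1). *SETD3* was highest in N9 (77.3) and N8 (28.2), the samples with the highest muscle sums, whose part in this was not tested. *NSD1*, which places dimethylation on the same histone residue, had a log2 fold change of 0.35, and *MSH6*, a mismatch repair gene that reads the mark of SETD2, of 0.60. Of the genes listed for ATRX, DAXX, the histone variant H3.3 and telomeres, 0 of 15 were called with N1 (against 6.86% of all tested genes) or without it (against 14.8%), and 1 without T1 (against 8.99%), with a median of 0.03. *DAXX* was at 3.40 to 9.31 in non-tumor and 5.66 to 8.58 in tumor (0.32, adjusted p = 0.884 by limma). *UBN1*, a chaperone subunit of the same histone variant (-0.71), and *PML*, a nuclear body gene (-0.59), were the members of that list that differed most.

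The DLG and cell polarity list had 3 of 15 tested genes called, all higher in tumor (20.0%, median 0.55, where 3.28% of all genes were called higher). Without N1 there were 4 (26.7%, against 6.31%), and without N8 there were 0, where 2.36% of all tested genes were called in either direction. *DLG5*, a relative of *DLG2*, was at 7.91, 2.85, 0.812 and 1.81 FPKM in N1, N3, N8 and N9 and at 20.4, 9.95 and 8.16 in T1, T3 and T10, without overlap (log2 fold change 1.83, SE 0.63, unadjusted p = 0.0169, adjusted p = 0.693 by limma). Its call was lost without N8 or T1, and without N1 the value was 2.26. *DLG5* was highest in T1 and lowest in N8, the samples with the highest and lowest osteoblast sums, whose part in this was not tested. *PRKCI*, an atypical protein kinase C of the polarity complex, was at 3.96 to 14.7 in non-tumor and 10.1 to 41.8 in tumor (1.50, unadjusted p = 0.0365 by limma), a call lost without N3, N8, N9, T3 or T10 and in 3 of 12 other alternatives (1.83 without N1). *CASK*, a scaffold kinase, was at 1.99 to 10.2 in non-tumor and 7.02, 15.6 and 68.0 in T3, T1 and T10 (2.13, unadjusted p = 0.0223 by limma), a call lost without N8, N9 or T10 (2.54 without N1). *CASK* and *ATRX* both lie on chromosome X, and both were highest in T10, as were 15.8% of all tested genes. The share over chromosome X was not computed. *DLG1*, a closer relative in the same family, had a log2 fold change of 0.36 (adjusted p = 0.878 by limma) and was also highest in T10 (56.3).

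Of 19 other osteosarcoma-associated genes tested, 3 were higher in tumor (15.8%, against 3.28% of all tested genes; median 0.07). Without N1 it was also 3, against 6.31% of all tested genes as higher. *VEGFA*, an angiogenic growth factor, was at 24.7 to 82.5 FPKM in non-tumor and 95.4, 134 and 171 in T1, T3 and T10, without overlap (log2 fold change 1.63, SE 0.55, unadjusted p = 0.0154, adjusted p = 0.693 by limma), and of the fits without a single sample its call was lost only without T10 (1.71 without N1). *PMP22*, a myelin gene, was at 22.6 to 37.7 in non-tumor and 43.5, 65.9 and 269 in T1, T10 and T3 (1.65, unadjusted p = 0.0302 by limma), a call lost without N1 (1.54), N8 or T3. *LSAMP*, a cell adhesion gene, was at 0 to 2.81 and 1.73 to 8.58 (1.72, unadjusted p = 0.0344 by limma), a call lost without N8, N9, T3 or T10 and in 4 of 12 other alternatives (2.07 without N1). *RUNX2*, the master regulator of osteoblasts, was at 142, 60.1, 6.22 and 11.3 in N1, N3, N8 and N9 and 130, 45.5 and 116 in T1, T3 and T10 (1.59, adjusted p = 0.719 by limma). It was called without N1 (2.34, adjusted p = 0.257 by limma), the non-tumor sample with the highest osteoblast sum. The cell cycle list had 0 of 11 genes called, with N1 (against 6.86% of all tested genes) or without it (against 14.8%), and a median of 0.75, with *CDK1* at 1.26 (adjusted p = 0.754 by limma) and *TOP2A* at 0.98 (adjusted p = 0.789). Both proliferation genes were lowest in N9 (7.22 and 4.01 FPKM).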

How the data were processed

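Values were analysed as deposited, in FPKM per gene and sample, which the authors computed with Cufflinks/Cuffdiff after trimming with Trim Galore and alignment with Tophat2 to CanFam3.1 with the Ensembl annotation; versions and the normalization between libraries are not given in the sources used here. A second table holds the authors' group comparison (group FPKM, fold changes, p- and q-values); only its intervals were used, with 1 added to each start. Blank lines (2) were skipped, and 0 per-sample columns were left unused. The study's methods give an approximate read number for the samples as a whole. No counts were analysed, so the depth of each sample was estimated relative to N1 (0.546 in N8 to 1.45 in T10, from the steps between low values), and an exact 0 may be a failed estimate.

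Tumor and non-tumor were compared on log2(FPKM + 1) with limma 3.58.1 in R 4.3.3, with a mean-variance trend, over 13507 genes, after 11073 with a mean below 1 FPKM were left out. A gene was called at a log2 fold change of at least 1 either way with an unadjusted p under 0.05; adjusted p-values are Benjamini-Hochberg over all tested genes. The fit was tested on simulated data. Genes named are the 8 genes, a set of fixed partners, the called genes and the 2 most changed tested genes of each pathway list, and the 2 nearest profiles of each tested gene; neighbouring genes and any others were chosen after their values were seen. The 8 genes and all lists were chosen with earlier results of these data known. Pseudocounts, filters, scalings, the variance model, sample weights, a block on the sample number and leaving out samples were tried as alternatives.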

Additional observations from a re-analysis of the deposited data

Results flagged for a closer look

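In 53 genes that the text reports, the highest and lowest non-tumor sample were compared with the range of the 4 non-tumor samples. Gaps and ranges were taken on log2(FPKM + 1), so they do not follow from the FPKM values printed beside them. On that scale 4 genes held a sample whose gap to the nearest other exceeded 0.829 of the range. Chance flags about 1 in 20 groups. For *RB1*, N1 (5.40 FPKM) was separated from the next sample (37.6) by a gap of 0.863 of the range. For *CDKN2B* the gap was 1.0 of the range, since N1 (0.472 FPKM) was the only non-tumor sample above 0. For *GJB7*, the gene with the profile nearest to *DLG2*, N1 (1.85 FPKM) stood apart with a gap of 0.909. For *SEC61G*, a gene with a profile near that of *CDK4*, N9 (10.7 FPKM) lay below the others (33.7 to 39.6) with a gap of 0.875. N1 was thus the sample set apart in 3 of the 4 genes, and N1 was also the non-tumor sample most like T1. These 3 genes are not independent evidence. The *CDKN2B* gap follows from the values of 0, and *GJB7* was chosen by its profile over these same samples.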

How the results depend on the processing

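The number of genes called (926) was 1857 with sample weights and 319 to 1997 when a sample was left out (1997 without N1, 319 without N8, 603 without T3, 424 without T10). With the sample number as a fixed replicate block it was 241, and as a random block 1062; numbers 1 and 3 alone occur in both tissues and are not stated to mark 1 dog. Deviations from the group means correlated at 0.422 for number 1 and 0.211 for number 3. Leaving out N1 and T1 together, an alternative added after the data were seen, gave 1894 genes, 14.0% of those tested. Of the 8 genes, 1 was called, 0 under the fixed block or with samples rescaled to the same sum, 2 without N1 and T1 (*RB1* and *CDK4*), and 0 to 1 when a sample was left out.

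The log2 fold change of *RB1* was -1.16 under the fixed block, -1.60 rescaled to the same sum and -2.51 to -1.50 without single samples. Without single samples the ranges were -0.40 to 0.61 for *MDM2*, 0.67 to 2.36 for *CDK4* (2.58 without N1 and T1), -0.86 to 0.64 for *MYC* (0.026 rescaled to the same sum) and 0.23 to 1.58 for *DLG2* (-0.13 under the fixed block). Of 13 named genes called over all samples, 11 lost the call under the fixed block, *RB1* among them, and *PMP22* and *VEGFA* kept it. *SETD2* and *ATRX* kept their direction and their side of the threshold in every alternative run. Under the fixed block the direction also turned for *CDK1* (-0.017), *DAXX* (-0.0885), *DLG1* (-0.22), *E2F1* (-0.50), *MAX* (-0.12), *NSD1* (-0.20), *RUNX2* (-0.26), *TOP2A* (-0.42) and *SKP1* (0.52). *MYCN* was -0.84 with a pseudocount of 0.01, and *VDR* was 0.019 under quantile normalization and 0.045 with sample weights. Without single samples the sign turned within -0.12 to 0.60 for *DLG1*, -0.38 to 0.62 for *E2F1*, -1.30 to 0.53 for *FAM20A*, -0.13 to 0.28 for *MAX*, -0.16 to 1.29 for *MYCN*, -0.18 to 0.75 for *NSD1*, -1.48 to 0.10 for *PML*, -0.23 to 0.66 for *PSMD12*, -0.79 to 0.23 for *SKP1*, -1.14 to 0.0026 for *UBN1* and -0.90 to 0.63 for *VDR*. The cause of these changes was not tested. Rescaling to the same sum moved the median log2 fold change of all genes from -0.02 to 0.12 and the share of calls lower in tumor from 52.2% to 64.7%; quantile normalization gave 42.8%, and leaving out a sample moved it furthest without T10 (29.7%) and without T3 (31.3%). Called genes of the RB pathway numbered 0 to 5 when a sample was left out, those of p53 1 to 6, and those of the DLG list 0 to 4.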
